A study of Homo sapiens with 4 samples.

Results

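Most human exons that lie between 2 introns are short, and this account concerns the exceptions: skipped exons of 1000 nt or more. They were chosen by length and depth, not by inclusion. An exon had to be 1000 nt or longer, to be listed for both groups, and to have at least 10 reads in each group that match only the form with the exon or only the form without it. Of 421 distinct skipped exons of that length in both groups, 398 met the read minimum, out of 8228 exons of any length that met it. They lie in 360 genes and, because 58 of them overlap another one, at 366 separate places in the genome.

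The study sequenced RNA from MDA-LM2 cells, a derivative of the MDA-MB-231 breast cancer line selected for metastasis to the lung. One group of cells received an RNA named SSE mimetic and the other a scrambled oligo, both by lipid transfection. Each group has 2 samples, but the deposited tables hold 1 pooled set of reads per group, so no spread between samples can be computed and differences below have no replicate check. The study used 1 cell line, and the time after transfection is not given in the sources used here. Whether the samples within a group were grown separately is not in the labels.

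The splice-site machinery usually recognises an exon as a unit, across its length, and internal exons far longer than the usual size are uncommon. Those that exist often carry a large part of a protein, such as the repeat domains of mucins or the zinc finger arrays of transcription factors. In many other annotated cases the long exon is an intron left in the RNA, or it ends the reading frame early and exposes the RNA to nonsense-mediated decay (NMD), which degrades messages with a premature stop.

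Inclusion was given by the authors as Ψ, the fraction of a gene's RNA that contains the exon, from 0 to 1, with a 95% credible interval that covers counting error only. Ψ came from the program MISO, which weighs inclusion reads (exon body or its junctions), skipping reads (the junction that leaves the exon out) and shared reads in the flanking exons. For a long exon the body offers far more positions for a read than the single skipping junction, so read counts must be weighed by length. An exon is called different here where, in the authors' deposited table, the Bayes factor (how much better the reads fit unequal than equal Ψ) reached 10 and the Ψ values lay 0.1 or more apart.

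The reads that separate the isoforms lie on short stretches of sequence, shown here for 5 long coding exons with skipping reads, read from the GENCODE release 29 transcripts of the hg38 build. Lower case marks the neighbouring exon. Capitals mark the long exon in the inclusion junctions, and the downstream exon in the skipping junction.
NASP upstream inclusion junction: atgataacatagatgAGGAAGCAAGGGAAG
NASP downstream inclusion junction: TGAAAGAGGGTGAAGaaactgaaggctcag
NASP skipping junction: atgataacatagatgAAACTGAAGGCTCAG
CLIP1 upstream inclusion junction: gccgacaaagccaaaTCGCTAACTTATTTG
CLIP1 downstream inclusion junction: CTTCAGTCATTTACGgctgctcaaacagcg
CLIP1 skipping junction: gccgacaaagccaaaGCTGCTCAAACAGCG
NACA upstream inclusion junction: cccaggctgagacagCTGTGCTACCTATGT
NACA skipping junction: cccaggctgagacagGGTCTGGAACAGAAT
MAP4 upstream inclusion junction: cttcagagacctcagCCAACTTCATGTATT
MAP4 skipping junction: cttcagagacctcagGAATAGCCAGGCCAG
MKI67 upstream inclusion junction: tctcttctgaccctgATGAGAAAGCTCAAG
MKI67 skipping junction: tctcttctgaccctgATGAGAGTGAGGGAA
In MKI67 the long exon and the exon after it begin with the same 6 bases, so a read that reaches no further across the junction cannot tell them apart. In NASP they share 1 first base, and in CLIP1, NACA and MAP4 none.

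Some of the 398 exons contain an intron that other transcripts of the gene remove. GENCODE annotates such an intron inside 97 of them. The annotated intron lies wholly inside the long exon in all 97. For 4 of these, given as examples, the ends of the inner intron are shown, with the first and last intron bases, GT and AG, in capitals.
PFDN5 inner intron start: tagctgggactttagGTacgcgccaccacg
PFDN5 inner intron end: attcttgcttctcAGatgtatgtccctggg
RPLP1 inner intron start: ggcttgtttgcaaagGTaaggtgatggtgg
RPLP1 inner intron end: gcacatgtattgcAGgccctggccaacgtc
RPAIN inner intron start: tccatcccatctcatGTgagtgttccacac
RPAIN inner intron end: ttttttattttgtAGtcttctgagttgaca
MFF inner intron start: agttgttacacatttGTgagtaaaaatggt
MFF inner intron end: ctttcttttttacAGctggaaaagcagtgt
These inner introns span 1298 nt in PFDN5 (chr12:53296552-53297849), 1448 nt in RPLP1 (chr15:69453722-69455169), 1771 nt in RPAIN (chr17:5426300-5428070) and 816 nt in MFF (chr2:227328790-227329605), all on the plus strand. Inclusion reads of such an exon can come from RNA that still holds this intron or from the shorter exons at its ends.

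Depth differed between the groups. Over all events, the scrambled group had 3.94 times the inclusion, skipping and shared reads of the SSE mimetic group. Over the 398 long exons it had 3.6 times the inclusion reads (150702 against 41881), 9.16 times the skipping reads (4243 against 463) and 3.94 times the shared reads (81787 against 20767). Reads in these events that matched neither isoform, which can come from the flanking introns or from other exons inside them, were only 1.64 times as many (473040 against 289328). The cell line was checked by the isoform-specific reads in the best covered exon of marker genes, mimetic first. Of the mesenchymal genes listed, 5 of 8 had an exon in the tables: CD44 (1398 and 10893 reads), ITGB1 (1312 and 13715), AXL (226 and 1090), S100A4 (67 and 630) and FN1 (50 and 371), while VIM had none. Of 10 luminal or epithelial genes 7 had one, and they overlapped the mesenchymal ones: KRT8 had 289 and 951 reads, ERBB2 42 and 120 and ESRP1 58 and 89, while ESR1 (10 and 6), PGR (15 and 31), GATA3 (6 and 19) and CDH1 (13 and 17) had few. Of the leukocyte genes, PTPRC had 12 and 17, CD3E 27 and 29 and LYZ 32 and 34, while CD79A and CD68 had no exon in the tables. Of the endothelial and stromal genes, DCN had 47 and 70, VWF 29 and 37, PDGFRB 16 and 24 and PDGFRA 14 and 28, and PECAM1 and KDR had no exon. With the mimetic, DCN was thus close to FN1, so these reads do not set the cell line cleanly apart.

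The typical long exon was mostly included in both groups and differed little. The median Ψ of the 398 was 0.79 in mimetic-treated cells and 0.84 in the scrambled group. The median difference, mimetic minus scrambled, was -0.02, with quartiles of -0.08 and 0.05, and it was -0.03 over all 8228 exons. By sign alone, 142 long exons were above 0, 236 below and 20 at 0. These signs depend on depth. With Ψ recomputed after dividing the scrambled reads by the depth ratio of 3.94, the median difference turned to 0.0408. Counting error was wide: the median credible interval spanned 0.365 of the Ψ scale with the mimetic and 0.21 with the scrambled oligo.

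A difference was called for 38 of the 398 long exons, 9.55% of them, against 3.99% of all 8228 exons. Of these, 31 were higher with the mimetic (7.79%, against 3.1% of all exons) and 7 were lower (1.76%, against 0.887%). The share called was larger in each longer class. None of 61 exons of 1 to 27 nt was called. The share was 1.26% of 714 exons of 28 to 75 nt, 3.63% of 5871 exons from 76 to under 300 nt, and 5.74% of 1184 exons from 300 to under 1000 nt. Within the long exons it did not rise steadily: 20 of 182 were called from 1000 to under 1500 nt, 10 of 170 from 1500 to under 3000 nt, and 8 of 46 at 3000 nt or more.

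**Figure D1:**
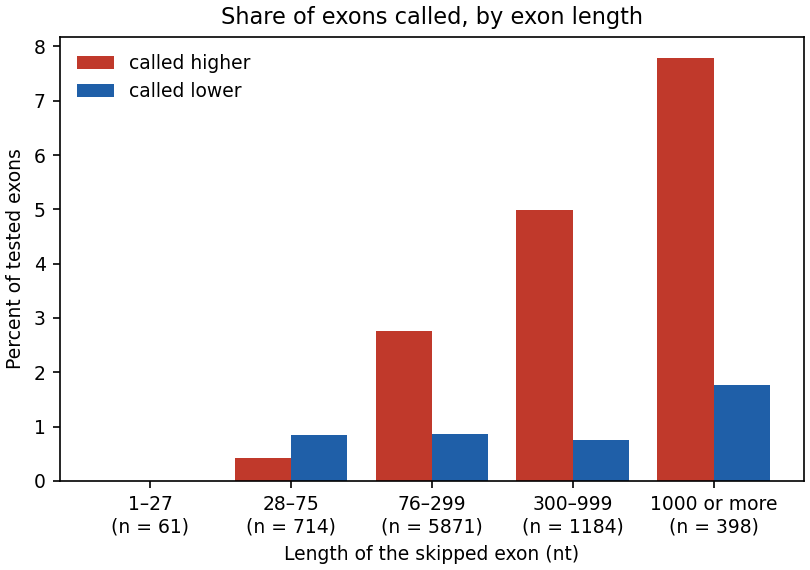
Percent of tested exons called higher (red) or lower (blue) with the SSE mimetic, on the vertical axis, by length of the skipped exon in nt, with the number of exons under each pair of bars. The red bar reaches 7.79% for exons of 1000 nt or more and 4.98% for those from 300 to under 1000 nt, and the blue bar stays below 2%.

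The higher calls all came from exons with a low Ψ in the scrambled group. This is the authors' estimate, and some of these exons had no skipping read in either group. Of the 398, 86 had a scrambled Ψ under 0.5, and all 31 higher calls were among them. None of the other 312 was called higher. The same held broadly for exons of every length, with 243 of 1914 called higher under 0.5 (12.7%) and 12 of 6314 at 0.5 or more (0.19%). Exons at 0.9 or above with the scrambled oligo, of which there were 143, had hardly any room for a rise of 0.1. All 38 called exons had credible intervals that did not overlap between the groups. Calls and intervals come from the same reads and model, so this is no separate check of the calls.

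**Figure D2:**
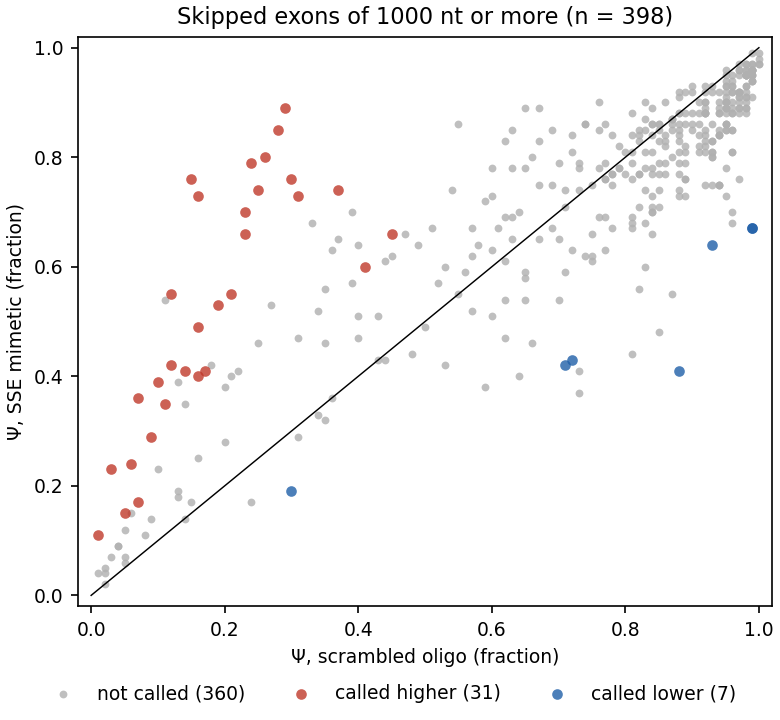
Ψ of each of the 398 long exons with the scrambled oligo (horizontal axis, fraction) and with the SSE mimetic (vertical axis, fraction); the line marks equal values. The 31 red points called higher all lie left of 0.5, and the 7 blue points called lower lie below the line.

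By what the annotation says of them, the long exons fell into 6 classes. Wholly coding exons were 120, and 8 were called (5 higher, 3 lower), where 2.19% of 4799 such exons of any length were called. Exons that hold both coding sequence and UTR were 118, with 12 called higher and 2 lower, beside 7.08% of 1454 of any length. Exons found only in noncoding transcripts were 109 (8 higher, 1 lower), beside 5.05% of 1030. No GENCODE exon had the same ends as 35 others (5 higher, 1 lower), beside 8.03% of those of any length. The rest were 9 exons in a 3′ UTR, with 1 called higher (6.15% of 130 of any length), and 7 in a 5′ UTR, with none called (6.98% of 516).

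Exons that end the reading frame held 10 of the 31 higher calls, in 8 genes. They were among 50 long exons with a stop codon and no start codon, of which none was called lower. Over all lengths, 80 of 834 such exons were called higher and 1 lower. Of 61 with a start codon and no stop, 2 were higher and 2 lower, beside 14 and 7 of 609 of any length. By transcript type, 80 long exons lie in a transcript annotated as an NMD target, of which 12 were called higher and 1 lower (16.2%). Over all exons tested, 105 of 3045 in such transcripts were called higher and 30 lower (4.43%). Of 69 long exons in transcripts annotated as retaining an intron, 7 were called higher and none lower (10.1%), against 29 and 19 of 1639 of any length (2.93%). Of the 31 higher calls, 8 lay in an annotated exon outside both kinds of transcript. The matching share over all exons tested was not computed, so this count shows no concentration of the calls.

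The stop-containing exons called higher belonged to genes of unrelated roles. In MOK, which encodes a MAP kinase-like protein, the 1314-nt exon at chr14:102225095-102226408 had 46 inclusion, 0 skipping and 19 shared reads with the mimetic, and 95, 0 and 224 with the scrambled oligo. Its Ψ was 0.76 (0.51 to 0.99) and 0.15 (0.11 to 0.18). No read in either group crossed its skipping junction, so here Ψ rests on the other classes: shared reads were 11.8 times as many with the scrambled oligo and inclusion reads 2.07 times as many. GOSR2, a Golgi SNARE, counted 3 times, with overlapping forms of 1038, 1205 and 1343 nt that share most of their reads. Their Ψ was 0.74, 0.70 and 0.66 with the mimetic and 0.25, 0.23 and 0.23 with the scrambled oligo, and none had a skipping read. NDUFB9, a subunit of mitochondrial complex I, had 0.76 against 0.30 from 16 and 19 inclusion reads, the fewest among the called exons. CD99L2, a cell surface adhesion protein, had 0.55 (0.29 to 0.87) against 0.12 (0.07 to 0.20). CLEC2D, a C-type lectin, had 0.23 against 0.03. In CLEC2D, 29 and 35 inclusion reads stood beside 565 and 6174 shared reads.

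DDX3X, an RNA helicase, had overlapping long forms with unlike values. Each form keeps its own event, so the flanking exons can differ as well as the exon ends. Its 1393-nt form at chrX:41337691-41339083 was called, with a Ψ of 0.15 (0.10 to 0.23) against 0.05 (0.04 to 0.06). A form with the same start and 1222 nt had 0.54 (0.22 to 0.87) against 0.11 (0.08 to 0.16), a larger difference, but the authors' deposited table gave it a Bayes factor of 8.88, under the minimum. The 1676-nt form had 0.14 and 0.09 and was not called.

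Among exons found only in noncoding transcripts, many of them with an intron retained, 8 were called higher. COL4A3BP, the ceramide transfer protein, had the highest Ψ with the mimetic among the exons called higher. Its 2854-nt exon had 123 inclusion and 2 shared reads there, and 207 and 30 with the scrambled oligo, for a Ψ of 0.89 (0.62 to 0.99) and 0.29 (0.19 to 0.42). PFDN5, a prefoldin subunit that helps fold actin and tubulin, had 0.80 (0.52 to 0.98) against 0.26 (0.21 to 0.33) for the 1495-nt exon that contains the inner intron shown above. RPAIN, an importer of replication protein A, had 0.49 (0.33 to 0.68) against 0.16 (0.14 to 0.19). MFF, the mitochondrial fission factor, had 0.42 (0.26 to 0.65) against 0.12 (0.09 to 0.14). AFTPH, a protein of clathrin-coated vesicles, had 0.73 against 0.16, and the 7113-nt exon of ZNF195, a zinc finger gene, 0.60 against 0.41. PSMA3-AS1, an antisense RNA, had 0.41 against 0.14, but without stated strand handling its reads cannot be told from those of its partner gene. RPLP1, a ribosomal stalk protein, had the most inclusion reads with the mimetic of any long exon, 1321 against 8304, and was not called. Its Ψ was 0.99 in both groups, and its inclusion reads can come from the short exons on either side of its inner intron.

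The 5 wholly coding exons called higher encode parts of NASP, CLIP1, WNK1, UNC13B and LCORL. NASP is a chaperone of linker and core histones, and its 1017-nt exon (chr1:45607321-45608337, plus strand) holds 43.0% of the reading frame and keeps the frame when skipped. It had 121 inclusion and 6 skipping reads with the mimetic and 549 and 133 with the scrambled oligo. Ψ was 0.53 (0.38 to 0.70) against 0.19 (0.17 to 0.22). The counts of the inclusion and skipping reads alone also differed between the libraries (adjusted p = 0.00289, Fisher's exact test, Benjamini-Hochberg over the 8228 exons).

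CLIP1, a protein that binds growing microtubule ends, had a Ψ of 0.36 (0.25 to 0.50) against 0.07 (0.06 to 0.09) for its 2268-nt exon (chr12:122322114-122324381, minus strand), which holds 87.2% of the longest annotated reading frame that contains it. There were 129 inclusion and 2 skipping reads against 186 and 38 (adjusted p = 0.00063, Fisher's exact test). WNK1, a kinase that controls ion transport, had 0.39 (0.23 to 0.63) against 0.10 (0.08 to 0.14), with 0 and 12 skipping reads. UNC13B, a priming factor of vesicle release, has the fourth longest exon of the set at 8247 nt, and its Ψ was 0.73 (0.52 to 0.92) against 0.31 (0.25 to 0.38) from 367 and 525 inclusion reads. LCORL, a transcriptional regulator, had 0.66 (0.55 to 0.77) against 0.45 (0.42 to 0.49) for 4826 nt. Skipping would keep the reading frame in 4 of these 5 and shift it in LCORL.

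Among the remaining higher calls, SCAF11, a splicing factor that interacts with SR proteins, had its start codon in the 1545-nt exon called. Ψ was 0.35 (0.25 to 0.47) against 0.11 (0.09 to 0.15), from 89 inclusion and 15 skipping reads against 103 and 68 (adjusted p = 0.00206, Fisher's exact test). TRMO, a tRNA methyltransferase, also with its start codon there, had 0.41 against 0.17. MSANTD3 had 0.29 (0.22 to 0.37) against 0.09 (0.07 to 0.10), from 64 inclusion and 7 skipping reads against 175 and 147. PPIE, a cyclophilin of the spliceosome, was the 1 exon called in a 3′ UTR, at 0.17 against 0.07. The 5 exons called higher whose ends match no GENCODE exon were in PCID2 (0.85 against 0.28), SAYSD1 (0.74 against 0.37), AP001273.2 (0.55 against 0.21), USP15 (0.24 against 0.06) and CASC4 (0.11 against 0.01). USP15 is a deubiquitinase and PCID2 takes part in mRNA export.

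**Figure D3:**
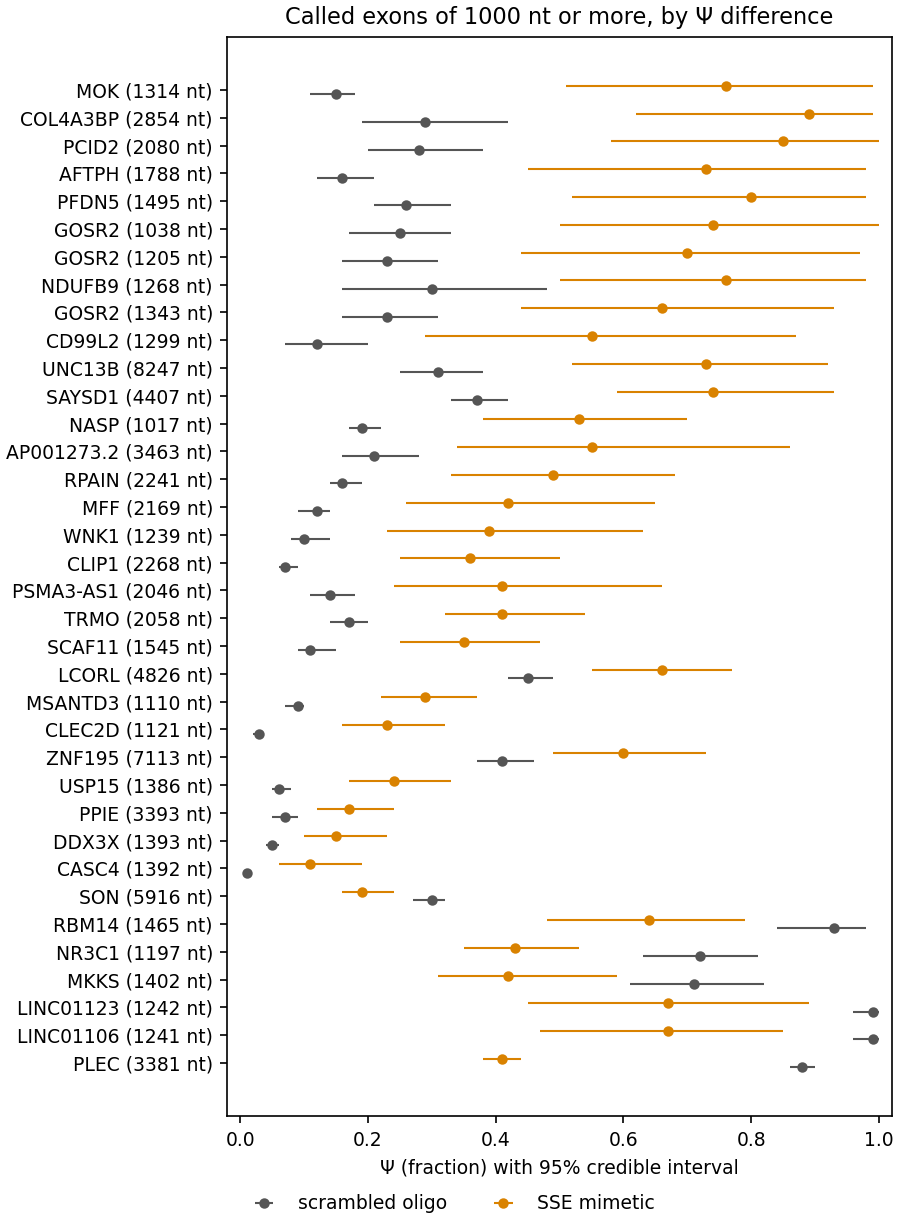
Ψ (fraction, horizontal axis) of 36 of the 38 called exons, with gene and exon length in nt, ordered by the difference; points are the authors' posterior means for the scrambled oligo (grey) and the SSE mimetic (orange) and bars are 95% credible intervals, which cover counting error only. The bars of a pair do not overlap in any of the 36, and the orange bars are mostly the wider ones, as in MOK (0.51 to 0.99 against 0.11 to 0.18).

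The 7 lower calls came from several annotation classes, as the higher calls did. PLEC encodes plectin, a large linker of intermediate filaments, and its 3381-nt exon (chr8:143922504-143925884) encodes the long rod of the protein in most transcripts. It had 956 inclusion, 1 skipping and 5026 shared reads with the mimetic and 8883, 12 and 21445 with the scrambled oligo. Ψ was 0.41 (0.38 to 0.44) against 0.88 (0.86 to 0.90), the largest difference among the lower calls. The share of inclusion among inclusion and skipping reads was near 1 in both groups, so the difference rests on the balance of inclusion and shared reads. Inclusion reads were 9.29 times as many with the scrambled oligo and shared reads 4.27 times, the latter near the depth ratio of 3.94.

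SON, a nuclear speckle protein needed for splicing of weak introns, has a 5916-nt exon (chr21:33549476-33555391) that holds 81.3% of its reading frame. Inclusion reads of SON were 556 with the mimetic and 4403 with the scrambled oligo, shared reads 125 and 637, and no read skipped the exon in either group. Ψ was 0.19 (0.16 to 0.24) against 0.30 (0.27 to 0.32). NR3C1, the glucocorticoid receptor, had 0.43 (0.35 to 0.53) against 0.72 (0.63 to 0.81) for the 1197-nt exon with its start codon, and no skipping read. MKKS, a chaperonin-like protein, had 0.42 (0.31 to 0.59) against 0.71 (0.61 to 0.82) with 0 and 2 skipping reads, and RBM14, an RNA-binding paraspeckle protein, 0.64 (0.48 to 0.79) against 0.93 (0.84 to 0.98) with none. With Ψ recomputed by a 2-isoform model from the same reads, RBM14 had a Bayes factor of 8.59 and lost its call.

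The last 2 lower calls, in the long noncoding RNAs LINC01123 and LINC01106, had nearly the same read counts. The exons are 1242 and 1241 nt long on chromosome 2, with 44 and 45 inclusion reads with the mimetic and 331 and 341 with the scrambled oligo. Both had a Ψ of 0.67 against 0.99. Both lost their call in the 2-isoform model on the same reads, with Bayes factors of 1.87 and 3.21. Whether the same reads were counted at both places was not tested, and both values are uncertain.

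Skipping reads gave a comparison that leaves out shared reads, but few long exons had any. No read crossed the skipping junction in either group for 292 of the 398 (73.4%), against 54.8% of all exons tested, so for most of these exons Ψ rests on the balance of inclusion and shared reads. This was so for 10 of the 31 higher and 5 of the 7 lower calls. Among the 106 with a skipping read, the share of inclusion among inclusion and skipping reads was larger with the mimetic in 90, smaller in 15 and equal in 1. Over all 3719 exons with a skipping read it was larger in 2547 and smaller in 972. The other 21 higher calls all had the larger share with the mimetic, and so had 2 of the lower calls, PLEC and MKKS, against the sign of their Ψ difference.

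Skipping reads were concentrated in a few genes. NACA alone gave 98 of the 463 with the mimetic and 1098 of the 4243 with the scrambled oligo. With NACA left out and 1 exon kept per place, there were 325 and 2627. The ratio between the groups was thus not carried by NACA alone.

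Fisher's exact test on inclusion against skipping reads, adjusted by Benjamini-Hochberg over all 8228 exons, passed for 8 long exons, against 1.01% of all exons (83), and 21 had an unadjusted p under 0.05. The test compares the pooled libraries, not the conditions. All 8 had the larger inclusion share with the mimetic. They are NASP, CLIP1 and SCAF11, given above, with MSANTD3 (adjusted p = 3.43e-06, Fisher's exact test), CASC4 (1.88e-07), USP15 (0.0454), HMGN1 (0.00522) and NACA (8.58e-49). CASC4 had 25 inclusion and 13 skipping reads against 37 and 218, and USP15 64 and 3 against 115 and 36.

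NACA, the alpha subunit of the nascent polypeptide-associated complex, had the lowest adjusted p, though its exon was not called. Its 5589-nt exon (chr12:56715871-56721459, minus strand) makes the long form known from muscle and holds 89.7% of that form's reading frame. It had 262 inclusion and 98 skipping reads with the mimetic and 446 and 1098 with the scrambled oligo. Ψ was 0.04 (0.03 to 0.05) against 0.01 in both bounds and mean, a difference of 0.03 that is below the minimum of 0.1. HMGN1, a nucleosome-binding protein, had 57 and 15 reads against 172 and 160, at a Ψ of 0.07 and 0.03. Both exons were thus nearly always left out in each group by the authors' estimate.

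Other long exons with many skipping reads were not called. MKI67, the proliferation marker, had 212 inclusion and 18 skipping reads against 1341 and 129 for its 1080-nt exon (chr10:128114928-128116007), which separates the long and short forms of the protein. Ψ was 0.32 (0.25 to 0.39) against 0.35 (0.32 to 0.39). MAP4, a microtubule-associated protein, had 0.18 (0.14 to 0.24) against 0.13 (0.11 to 0.15) for 3384 nt, and RPS24, a small ribosomal subunit protein, 0.02 in both groups with 48 and 309 skipping reads. EEF1D, a translation elongation factor with 2 overlapping forms of 1091 and 1102 nt, had 0.09 (0.06 to 0.12) against 0.04 (0.04 to 0.05) in both, from 38 and 474 skipping reads. SNRNP70, of the U1 particle, had 0.04 against 0.02.

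The long exons with the most inclusion reads were mostly constitutive ones. NUMA1, which organises spindle poles, had 1039 and 3206 inclusion reads over 3366 nt, no skipping read, and a Ψ of 0.95 (0.86 to 1.00) against 0.98 (0.95 to 1.00). MUC4, a membrane mucin, has the longest exon of the set, 12708 nt on the minus strand (chr3:195778790-195791497), with 830 and 1967 inclusion reads and a Ψ of 0.92 (0.77 to 0.99) against 0.97 (0.90 to 1.00). BRCA1, of homologous recombination repair, had 0.89 (0.73 to 0.99) against 0.96 (0.84 to 1.00) for its 3426-nt exon, with no skipping read in 317 and 1161 inclusion reads. ASPM, a spindle pole protein, had 515 inclusion reads against 6745 and 1 skipping read against 27, and its Ψ of 0.74 (0.57 to 0.92) and 0.73 (0.68 to 0.78) hardly moved. DST, a cytoskeletal linker, AKAP2, a kinase anchor, RRBP1, of the endoplasmic reticulum, and ARHGAP5, a GTPase-activating protein, all lay between 0.95 and 0.99 in both groups.

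Genes known for a long internal coding exon made up 25 of the 398 exons, in 20 genes. None was called higher and 2 were lower, PLEC and SON, with a median difference of -0.05, beside -0.03 over all exons tested. Of 23 exons in zinc finger genes 1 was higher, ZNF195, and the median difference was -0.07. Of 16 in genes of the cytoskeleton, adhesion and membrane scaffolds, CLIP1 was higher and PLEC lower (median -0.02). Of 15 in genes of RNA processing, SCAF11 and the 1393-nt form of DDX3X were higher and SON lower (median 0.02). None of 10 in mitosis and centrosome genes (median -0.02) and none of 8 in chromatin and transcription regulators (median -0.06) was called. BRCA1 was the 1 exon of a DNA repair gene. Exons of any length in these genes gave these calls: 7 higher and 3 lower of 122 in the genes with a long coding exon, 3 and 1 of 164 in zinc finger genes, 8 and 6 of 172 in cytoskeleton genes and 12 and 6 of 217 in RNA processing genes. There were 8 and 1 of 121 in mitosis genes and 7 and 0 of 155 in chromatin genes. With so few calls, no list is set apart by its count. The other 323 exons, in genes of no list, held 27 of the higher and 5 of the lower calls, beside 31 and 7 of all 398. The matching counts over exons of any length were not computed, so these calls do not set unlisted genes apart.

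The wholly coding exons were large parts of their proteins. Over the 120, the median exon held 55.6% of the reading frame, and 73 held more than 50%. Skipping keeps the frame in 68 of them, of which 4 were called higher and 2 lower, and shifts it in 52, with 1 higher and 1 lower. Over all lengths, 38 and 32 of 2315 frame-keeping and 12 and 23 of 2484 frame-shifting coding exons were called higher and lower.

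Repeated sequence was found in a few. The 363 exons with a sequence were compared with themselves at every shift from 6 to 400 nt, and 6 matched at 60% of bases or more at some shift. MUC4 matched at 73.9% when shifted by 48 nt, the length of its tandem repeat. Here are 5 consecutive units of it (chr3:195784919-195785158, minus strand), with capitals where a base differs from unit 1.
MUC4 unit 1: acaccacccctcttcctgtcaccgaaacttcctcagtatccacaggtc
MUC4 unit 2: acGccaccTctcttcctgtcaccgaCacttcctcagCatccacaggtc
MUC4 unit 3: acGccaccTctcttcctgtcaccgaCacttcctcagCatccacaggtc
MUC4 unit 4: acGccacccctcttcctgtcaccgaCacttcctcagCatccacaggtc
MUC4 unit 5: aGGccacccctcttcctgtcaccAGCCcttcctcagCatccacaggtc
Units 2 and 3 are the same in all 48 bases, so a read inside them has more than 1 place in the exon. How the authors' alignment counted such reads is not given in the sources used here.

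Zinc finger exons repeated at a longer and looser period. In 9 long exons the best match was at a shift of 84 nt, the length of 1 finger with its linker, and 6 of those are in zinc finger genes. ZNF567, with 58.4%, is shown by 5 consecutive units (chr19:36719693-36720112, plus strand), again with capitals where a base differs from unit 1.
ZNF567 unit 1: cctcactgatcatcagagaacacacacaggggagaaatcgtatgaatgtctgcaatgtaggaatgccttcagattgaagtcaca
ZNF567 unit 2: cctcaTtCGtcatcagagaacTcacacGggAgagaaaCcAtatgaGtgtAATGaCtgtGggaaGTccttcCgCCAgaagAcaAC
ZNF567 unit 3: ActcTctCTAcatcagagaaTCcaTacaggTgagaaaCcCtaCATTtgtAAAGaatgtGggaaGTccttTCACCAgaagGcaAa
ZNF567 unit 4: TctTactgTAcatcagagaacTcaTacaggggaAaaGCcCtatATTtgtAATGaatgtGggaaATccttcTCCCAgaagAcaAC
ZNF567 unit 5: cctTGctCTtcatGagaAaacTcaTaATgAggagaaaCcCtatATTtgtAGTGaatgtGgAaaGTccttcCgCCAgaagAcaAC
Units 2 to 5 differ from unit 1 at 24, 30, 28 and 31 of 84 bases. The exon of ZNF567 had a Ψ of 0.89 (0.68 to 0.99) against 0.97 (0.88 to 1.00) and was not called.

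The reads of a long exon can be set against those of the introns beside it. The ratio used here is inclusion reads per nt of exon over reads of neither isoform per nt of the flanking introns, and it is near 1 where an exon is no better covered than its introns. Its median over the long exons was 0.921 with the mimetic and 1.14 with the scrambled oligo, against 1.79 and 2.90 over all exons tested. For the 31 higher calls the medians were 0.924 and 0.890, and for the 7 lower calls 1.77 and 4.11. In the scrambled group every one of the 31 higher calls was under 1.5, from 0.120 in PPIE to 1.45 in LCORL, and 6 of the 7 lower calls were above it. RBM14, at 1.18, was the exception. The limit of 1.5 was set after the values were seen. The scrambled inclusion reads enter both this ratio and the scrambled Ψ, so the split of the calls is partly built in. How far the 2 are linked was not tested.

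**Figure D4:**
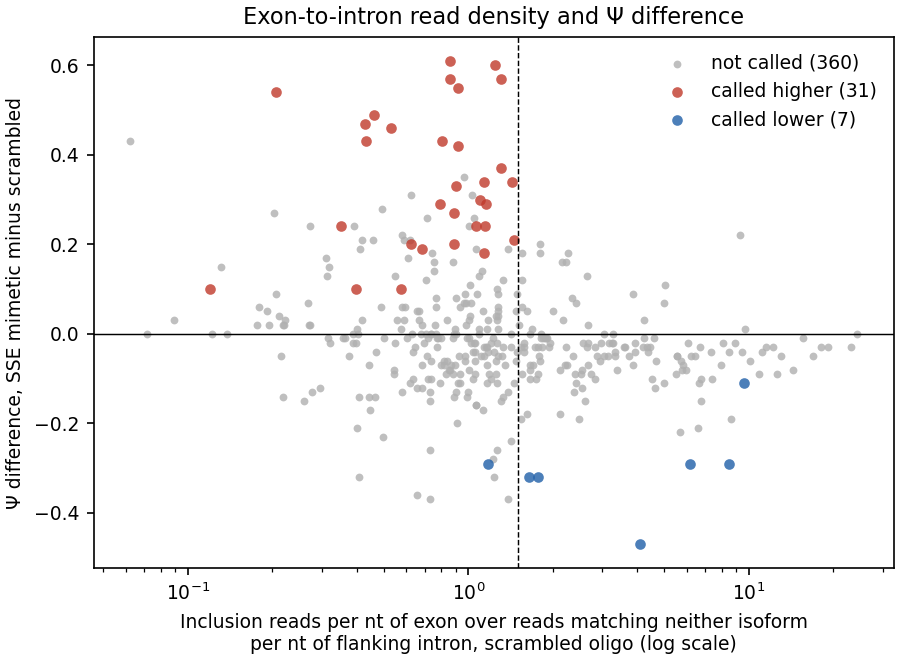
Ψ difference, SSE mimetic minus scrambled (vertical axis, fraction), against inclusion reads per nt of exon over reads of neither isoform per nt of flanking intron in the scrambled group (horizontal axis, log scale), 1 point per long exon; the dashed line is at 1.5. All 31 red points called higher lie left of the line, and 6 of the 7 blue points called lower lie right of it. The scrambled inclusion reads enter both axes.

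Of all 398 long exons, 254 lay under 1.5 in the scrambled group, with 31 called higher and 1 lower, and 144 at or above it, with none called higher and 6 lower. Over all exons tested, 2859 lay under 1.5, with 191 called higher and 9 lower, and 5369 at or above it, with 64 called each way. What part intron reads have in each Ψ was tested by 1 recomputation only. With the intron density taken off the inclusion reads, a 2-isoform model called 11 long exons higher and 57 lower, and 5 of the 31 were still called higher, among them COL4A3BP, NASP, CLIP1 and SCAF11. All 7 lower calls were kept, but as part of the 57, so this does not set them apart. In 3 of the 7, RBM14, LINC01123 and LINC01106, no inclusion read was left with the mimetic.

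The 3 read classes moved differently in the called exons. In the higher calls the median ratio of scrambled to mimetic reads was 1.68 for inclusion reads, 1.94 for reads of neither isoform and 5.88 for shared reads. In the lower calls it was 7.52 for inclusion, 2.14 for neither and 3.55 for shared reads. In the 360 long exons not called it was 2.24, 1.57 and 2.12. Ψ is computed from the inclusion, skipping and shared reads, so the calls themselves favour these orders of the inclusion and shared ratios. They are no separate evidence for the calls. Reads of neither isoform are not among the reads that Ψ weighs. In the exons called higher their median ratio was 1.94, beside 1.68 for inclusion reads, and the reason was not tested.

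**Figure D5:**
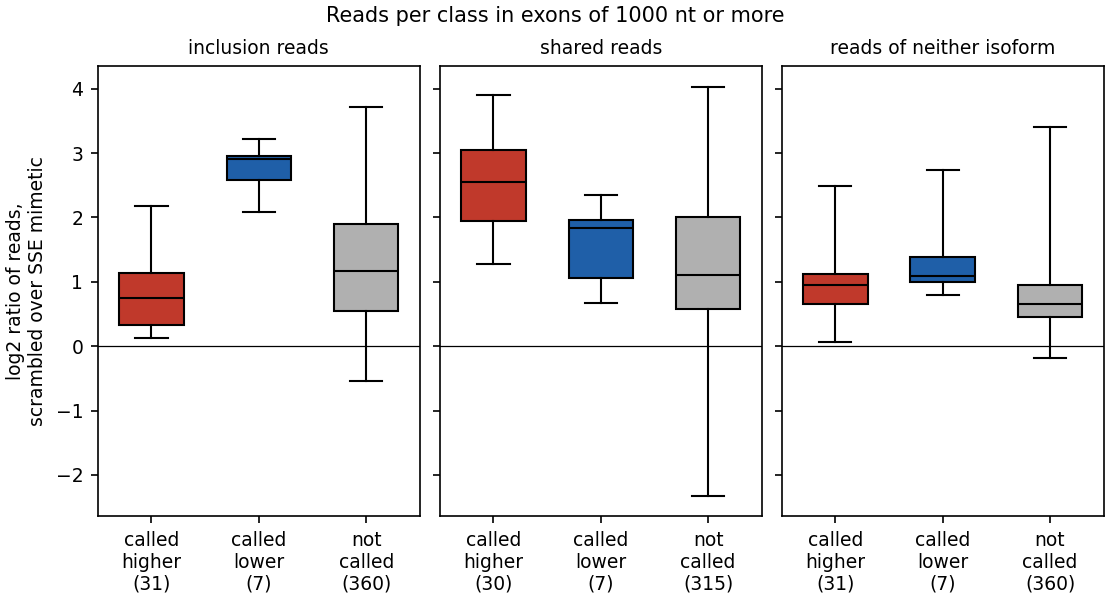
Log2 ratio of reads, scrambled over SSE mimetic (vertical axis), for inclusion reads, shared reads and reads of neither isoform, in long exons called higher, called lower or not called, with the number of exons under each box; boxes are medians and quartiles and whiskers the lowest and highest exon. Shared reads are highest in the exons called higher and inclusion reads in those called lower. Both classes also set Ψ, so the calls favour this order.

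ANK3, XIRP2 and FSIP2, also among the 6 longest exons, are genes best known from other tissues. ANK3, ankyrin G, has a giant exon known from neurons. Its 7812-nt form had 364 and 455 inclusion reads but only 2 and 1 shared reads, a density ratio of 0.826 and 0.796, and a Ψ of 0.76 (0.44 to 0.97) against 0.77 (0.50 to 0.96). XIRP2, an actin-binding protein of muscle, had 343 and 448 inclusion reads over 9379 nt and a Ψ of 0.90 against 0.86, at ratios of 1.39 and 1.26. FSIP2, a sperm sheath protein, had 0.71 (0.58 to 0.88) against 0.82 (0.70 to 0.95) over 9437 nt, at 0.694 and 0.794. None of the 3 was called.

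Base composition differed a little between the calls. The median GC content was 46.6% over the long exons with a sequence and 47.5% over all exons with one. It was 42.1% in the higher calls and 53.9% in the lower calls.

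The limit of 1000 nt fell in no gap. Just inside it were CFI at 1000 nt (Ψ 0.81 against 0.80) and WDR20 (0.76 against 0.97) and TSSK4 (0.87 in both) at 1001 nt. Just outside were HLA-DQA1 at 994 nt (0.81 against 0.79), ESPL1 at 989 nt (0.80 against 0.83) and ECI2 at 988 nt (0.73 against 0.94).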

How the data were processed

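The deposited tables are MISO output for skipped exons, per the file headers, with 1 set of reads per group, 2 samples behind each. Reads were aligned with STAR 2.7 to hg38, per the submitters' processing notes, and libraries were made with a ScriptSeq kit from DNase-treated total RNA, per the labels' protocols. For the MISO version, the event set and the read length, nothing is stated in the labels or headers. Ψ and its interval bounds are fractions, per the file headers. The Bayes factor is a ratio capped by the authors at 1e12, and the deposited Ψ difference is a score from -1 to 1. Reads per class were deposited as text.

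From these, distinct exons were formed (keeping, for each, its event with most isoform-specific reads), annotated with GENCODE release 29, and tested by two-sided Fisher's exact test with Benjamini-Hochberg adjustment (scipy 1.17.1, pandas 2.3.3, Python 3.11.15). Of the 398 long exons, 363 match a GENCODE exon exactly and 35 took their gene from the flanking exons. A 2-isoform likelihood model with a read length of 76 nt, on 500 grid points, served the alternatives. Among the lengths tried, 76 nt came closest to the deposited Ψ of the scrambled group (median absolute difference 0.0050). Calls kept by the model on the same reads are thus no separate check. The model was tested on simulated data. The length rule, gene lists and density measure were chosen with earlier results of these data known. Exons chosen for naming were all called ones, the 12 with most isoform-specific reads with the mimetic and the 10 with most skipping reads. The 6 longest, up to 3 per gene list and those passing Fisher's test were chosen as well. Of the chosen exons, those of HNRNPA3, ZNF106, ZNF714, ZFHX3, NCOA6, PHF3 and EWSR1 are not described here. MAP4, WDR1, ZBTB20, ZNF567 and the uncalled forms of DDX3X were added after their values were seen. Splice-site sequence inside the flanking introns was not used here. Isoform-specific reads per long exon ranged from 10 to 1321 with the mimetic (median 63) and 11 to 8895 with the scrambled oligo (median 148.5). A pair of called exons is counted but not reported here by name.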

Additional observations from a re-analysis of the deposited data

How the results depend on the processing

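The 31 higher and 7 lower calls stayed within 1.5 times of those counts with a Bayes factor of at least 100 (22 and 5), a Ψ difference of at least 0.2 (26 and 6), credible intervals apart (36 and 8), 20 reads or no minimum, 1 exon per place, another choice of event, or a 2-isoform model on the reads as deposited (34 and 5). That model kept all 31 higher calls but 4 of the 7 lower ones: RBM14, LINC01123 and LINC01106 lost theirs, and ZBTB20 gained one. Its read length was chosen to match the deposited Ψ, so kept calls are no separate check. With exons of 2000 nt or more, 13 were higher, 2 lower and 2 passed Fisher's exact test, among 122 exons. With only the 106 exons that had a skipping read, 2 were lower and the median difference turned to 0.045. Replacing Ψ by the share of inclusion among inclusion and skipping reads gave 11 higher, 0 lower, and a median of 0; the share of MKKS changed sign, at 0.003. With intron density subtracted, 11 were higher and 57 lower, and AP001273.2 (-0.016), LCORL (-0.138) and SAYSD1 (-0.085) changed sign; no inclusion read was left in either group for 162 long exons. With scrambled reads divided by 3.94, 23 were higher and 3 lower, 22 and 3 of them the same exons (lower: PLEC, NR3C1 and SON), and the median turned to 0.0408. Beyond what each construction removes, the cause was not tested. No paired analysis was possible because the tables hold 1 pooled read set per group; leaving out each replicate was not run for the same reason. Depth limits the mimetic group most, with a median credible interval of 0.365. Of 496 values for the 62 exons chosen for naming, 408 stayed called in the same direction or stayed uncalled. Of these, 13, all of uncalled exons, had the opposite sign. The call was lost in 79 and gained in 5, and 4 of called exons changed sign. An uncalled exon cannot gain a call under a stricter minimum on the same deposited values. Part of the 408 was thus fixed in advance, and how large a part was not counted.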

Other observations

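Of the 23 long exons left out by the read minimum, 15 fell short with the mimetic only, 6 in both groups and 2 with the scrambled oligo only. The best covered of them was FAM198A, with 5 and 29 isoform-specific reads and a Ψ of 0.17 and 0.12, followed by MYO18A, an unconventional myosin (8 and 22 reads, 0.27 and 0.23). None of the 23 had a Bayes factor of 10.

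Besides NACA and HMGN1, 1 more long exon passed the Bayes factor with a Ψ difference under 0.1. WDR1, which promotes actin disassembly, had a Ψ of 0.05 (0.04 to 0.07) against 0.02 in bounds and mean for 1498 nt, from 47 inclusion and 13 skipping reads against 112 and 91. In the opposite direction, 113 long exons differed by 0.1 or more without passing the Bayes factor. ZBTB20, a zinc finger repressor, was among those with the largest difference, at 0.44 (0.28 to 0.65) against 0.81 (0.66 to 0.95) from 22 and 91 inclusion reads, and it was named after its values were seen.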
